A study of Mus musculus with 8 samples.

Results

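The 6 genes described here, Kmt2a, Kmt2b, Kmt2c, Kmt2d, Setd1a and Setd1b, encode the KMT2 and SETD1 methyltransferases of lysine 4 on histone H3 (H3K4). They were taken by gene symbol from the authors' comparison table, which matched all 6 members among 25072 genes tested, and the transcript cluster (a set of probes along a gene) with the highest mean over the arrays stood for each gene. The tissue was prefrontal cortex, dissected at the cingulate cortex, of male mice aged 12 weeks, at rest and singly housed for the week before the tissue was taken. One group of 4 mice was labelled Mll1 Ko and the other group of 4 wild-type, with 1 array per mouse. Mll1 is the older name of Kmt2a. The series title places the loss in neurons, while the labels name neither the Cre line nor the deleted part of the gene. All values are the authors' log2 signals, so that a difference of 1 is a doubling, and differences are given as arrays labelled KO minus arrays labelled WT.

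The enzymes of this family share a catalytic SET domain and work in complexes around a common core of WDR5, RBBP5, ASH2L and DPY30. KMT2A and KMT2B bind CpG-rich promoters and associate with menin, KMT2C and KMT2D act mainly at enhancers, where they place monomethyl marks, and SETD1A and SETD1B supply much of the trimethyl mark at active promoters. Loss of a copy of the human genes is known to cause developmental disorders of the brain, among them Wiedemann-Steiner syndrome for KMT2A and Kabuki syndrome for KMT2D, and SETD1A variants are linked to schizophrenia.

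On each array the median signal lay between 7.99 and 8.08. A principal component analysis placed 42.8% of the variance on its first axis, with the arrays labelled KO at -14.01 to -9.52 and those labelled WT at 7.87 to 20.85. WT replicate 1 was the farthest out at 20.85, and WT replicate 4 was distant on the second axis, at -19.94. The 6 markers of excitatory cortical neurons averaged 10.72 to 10.85 on the arrays labelled KO and 10.97 to 11.12 on those labelled WT. Of these markers 2 fell, both transcription factor genes, where 5.71% of all genes fell and 11.0% were called in either direction. Tbr1 was one, at -0.46 ± 0.06 log2 (SE, limma adjusted p = 0.00227), while the bright vesicular glutamate transporter gene Slc17a7 was at -0.03 ± 0.05 (adjusted p = 0.719). None of the 6 differences was positive (median -0.234 log2). That also held for the 6 oligodendrocyte markers (median -0.113) and the 6 endothelial markers (median -0.071), so it was not particular to neurons. After quantile normalization 3 of these 6 markers fell, where 1.58% of all genes fell. Of 6 interneuron markers Gad1, a GABA synthesis gene, fell (-0.20 ± 0.05, adjusted p = 0.0346), and the list averaged 10.15 to 10.25 on arrays labelled KO and 10.16 to 10.3 on those labelled WT. Of 6 striatal markers the adenosine receptor gene Adora2a fell (-0.41 ± 0.07, adjusted p = 0.00672). Quantile normalization gave 2 falls among them, where 1.58% of all genes fell. The striatal list averaged 9.96 to 10.16 on arrays labelled KO and 10.07 to 10.24 on those labelled WT. No marker of astrocytes, oligodendrocytes, microglia or endothelial cells passed among 6 of each (limma). At an unadjusted limma p under 0.05, met by 8314 of all 25072 genes, there were 1, 3, 2 and 0 in that order. Their array means were 10.63 to 10.73 on arrays labelled KO and 10.61 to 10.68 on those labelled WT for astrocytes, and 11.1 to 11.28 on arrays labelled KO and 11.22 to 11.33 on those labelled WT for oligodendrocytes. For microglia they were 8.87 to 8.96 on arrays labelled KO and 8.77 to 8.9 on those labelled WT, and for endothelial cells 8.75 to 9.05 on arrays labelled KO and 8.93 to 9.03 on those labelled WT. Their part in the results below was not tested, and in bulk tissue fewer cells of a type and less RNA per cell cannot be told apart. The 6 markers of cerebellar granule cells averaged 8.13 to 8.21 on arrays labelled KO and 8.16 to 8.34 on those labelled WT. Neurod1 rose (0.42 ± 0.08, adjusted p = 0.0116) and Zic1 fell (-0.30 ± 0.07, adjusted p = 0.0309), both above the array medians. Over all genes 5.25% rose and 5.71% fell. Calb2 of this list, named after its values were seen, did not pass (-0.42 ± 0.19, limma adjusted p = 0.151). It read 9.64 and 9.67 on WT replicates 1 and 4, against 8.83 and 8.76 on WT replicates 2 and 3. Arrays labelled KO read 8.62 to 9.01. The dimmest of the list, Gabra6, lay at 6.48 ± 0.05 on the arrays labelled KO and 6.64 ± 0.16 on those labelled WT (SD, n = 4 and 4), under the lower quartile of the arrays (6.8 to 6.83 labelled KO and 6.89 to 6.94 labelled WT).

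Among the 6 methyltransferase genes, Kmt2a was the only one that passed the test, and it rose. It read 10.42, 10.38, 10.29 and 10.3 on the 4 arrays labelled KO, against 9.94, 10.13, 10.12 and 10.06 on the 4 arrays labelled WT (cluster 10592942). The groups did not overlap, with the lowest array labelled KO above the highest array labelled WT, and WT replicate 1 the lowest of all 8. Kmt2a averaged 10.35 ± 0.06 on arrays labelled KO and 10.06 ± 0.09 on those labelled WT (SD, n = 4 and 4). The difference was 0.285 ± 0.057 log2 (SE), a signal ratio of 1.22 with a 95% interval of 1.12 to 1.33 (limma, adjusted p = 0.014). The exact two-sided permutation p was 0.0286, the smallest that 4 against 4 arrays allow. One member of 6 thus rose, where 5.25% of all genes rose, and its values were free of overlap, as for 19.7% of all genes. The authors' deposited table gave Kmt2a a signed fold of -1.18 as wild-type over knockout, again higher in the knockout, and an FDR p-value of 0.0483. With WT replicates 1 and 4 both left out the difference of 0.223 missed the threshold (limma, adjusted p = 0.0589). It passed without each single array.

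Kmt2a is the gene that the knockout label names, and its signal was not lower there. The signal came from 1 cluster, whose probe positions along the gene are not given in the sources used here. It could come from exons that the deletion left in place or, in bulk tissue, from cells other than neurons. These sources cannot be told apart here, and the cause of the rise was not tested. The signal is no check of the labels. Every direction given here depends on them. The sequence upstream of the annotated Kmt2a gene is shown because Kmt2a was the member that passed the test and because promoters rich in the dinucleotide CG are the kind its protein binds. It spans chr9:44881353-44881539 of GRCm38.p6 on the minus strand (RefSeq), is written 5′ to 3′, and has each CG in capitals.

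Kmt2a upstream: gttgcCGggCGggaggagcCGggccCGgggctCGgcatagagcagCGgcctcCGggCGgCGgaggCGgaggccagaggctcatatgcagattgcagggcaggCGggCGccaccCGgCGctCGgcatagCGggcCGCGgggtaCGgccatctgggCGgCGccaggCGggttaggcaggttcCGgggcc

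These 187 bases held 23 CG, a motif that reads the same on both strands. RefSeq promoter windows of 300 bases were found for 4 of the 6 genes. The Kmt2a window held 36 CG, and 6.23% of the 32851 windows in the table held at least as many. The windows of Kmt2c, Setd1a and Kmt2d held 56, 35 and 27 CG, against a median of 7 over all windows, and 94.6% of all windows held at least 1. The Kmt2c, Setd1a and Kmt2d signals did not pass the test of genotype, so a CG-rich window was shared by the gene that rose and by genes that were not called.

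Kmt2b, the closest relative of Kmt2a, had the same mean in both groups. Its signal was 8.81, 8.92, 8.88 and 8.88 on the arrays labelled KO, against 8.89, 8.85, 8.92 and 8.83 on those labelled WT (cluster 10562005). The values interleaved, and the difference was 0 ± 0.047 log2 (SE, limma adjusted p = 1), with a 95% interval of -0.102 to 0.102. A change of Kmt2b as large as that measured for Kmt2a lay outside this interval.

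The enhancer-type enzymes Kmt2c and Kmt2d gave differences near 0. Kmt2c read 9.57, 9.63, 9.48 and 9.42 on the arrays labelled KO, against 9.43, 9.52, 9.51 and 9.54 on those labelled WT (cluster 10528723). The arrays labelled KO held both the highest and the lowest value, and the difference was 0.025 ± 0.056 log2 (SE, limma adjusted p = 0.774), with a 95% interval of -0.097 to 0.147. Kmt2d read 9.54, 9.57, 9.52 and 9.5 on the arrays labelled KO, against 9.45, 9.52, 9.59 and 9.55 on those labelled WT (cluster 10432298). The arrays labelled KO lay within the range of those labelled WT, and the difference was 0.005 ± 0.048 log2 (SE, limma adjusted p = 0.952), with a 95% interval of -0.099 to 0.109. Both signs turned after quantile normalization, to -0.023 for Kmt2c and -0.043 for Kmt2d, again without a call (limma, adjusted p = 0.839 and 0.594).

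Setd1a and Setd1b, the SETD1 enzymes, had small positive differences that did not pass. Setd1a read 9.2, 9.19, 9.22 and 9.17 on the arrays labelled KO, against 8.96, 9.19, 9.09 and 9.15 on those labelled WT (cluster 10557758). WT replicate 1 was the lowest, WT replicate 2 equalled KO replicate 2, and the difference was 0.097 ± 0.055 log2 (SE, limma adjusted p = 0.231), with a 95% interval of -0.024 to 0.219. Without WT replicate 1 it was 0.052. The authors' description of this cluster names Hsd3b7, a steroid dehydrogenase gene, beside Setd1a, so its signal cannot be given to Setd1a alone. Setd1b read 9.48, 9.52, 9.56 and 9.38 on the arrays labelled KO, against 9.33, 9.46, 9.51 and 9.39 on those labelled WT (cluster 10525489). The groups overlapped over most of their range, and the difference was 0.062 ± 0.057 log2 (SE, limma adjusted p = 0.452), with a 95% interval of -0.063 to 0.188.

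**Figure D1:**
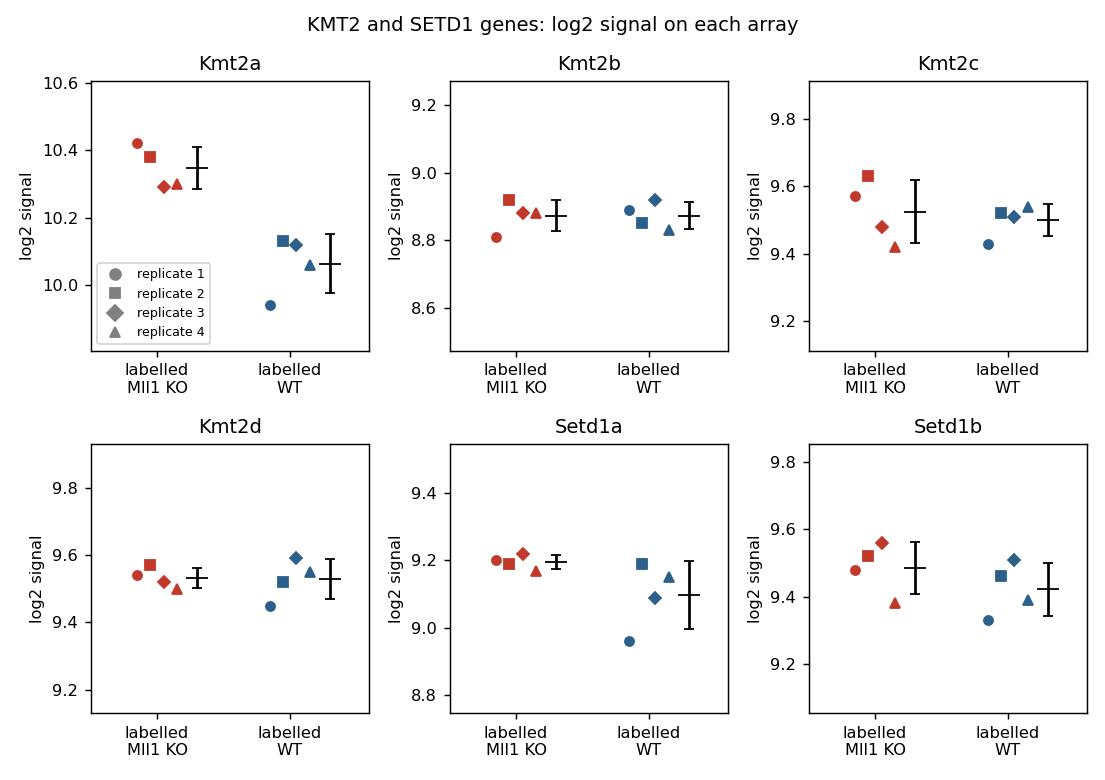
Log2 signal of the 6 genes on each array, with the arrays labelled Mll1 KO left of those labelled WT; each point is 1 mouse, its shape gives the replicate number, and the black mark and bar are the mean and SD of 4 arrays. All panels span the same 0.8 log2 units, and the groups are apart only for Kmt2a, where arrays labelled KO lie at 10.29 to 10.42 and arrays labelled WT at 9.94 to 10.13.

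WT replicate 1, the array farthest out on the first axis, gave the lowest wild-type value for 5 of the 6 genes, all but Kmt2b. The within-group SD was 0.0431 for Kmt2b, 0.0468 for Kmt2d and 0.0725 to 0.0781 for the other 4, against a median of 0.0856 over all genes. Of all genes 6.97% had a smaller SD than Kmt2b and 9.44% a smaller SD than Kmt2d. For the other 4 it was 35.1% to 41.5%, so only Kmt2b and Kmt2d were unusually steady between mice. For the clusters used, the 95% intervals of the 5 genes that were not called ran from -0.102 to 0.219 log2 in all. The intervals of 2 dimmer clusters of Setd1a and Setd1b reached -0.221 and -0.252.

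The rise of Kmt2a was set against each relative on the same array, which removes any shift that both genes share. The value of Kmt2a minus Kmt2b was 1.61, 1.46, 1.41 and 1.42 on the arrays labelled KO, against 1.05, 1.28, 1.2 and 1.23 on those labelled WT. Every array labelled KO exceeded every array labelled WT, and the difference between groups was 0.285 ± 0.068 log2 (SE). Kmt2a minus Kmt2c was 0.85, 0.75, 0.81 and 0.88 on the arrays labelled KO, against 0.51, 0.61, 0.61 and 0.52 on those labelled WT, a difference of 0.26 ± 0.039. Kmt2a minus Kmt2d was 0.88, 0.81, 0.77 and 0.8 on the arrays labelled KO, against 0.49, 0.61, 0.53 and 0.51 on those labelled WT, a difference of 0.28 ± 0.035. The groups were again apart for both of these relatives.

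Kmt2a minus Setd1a was 1.22, 1.19, 1.07 and 1.13 on the arrays labelled KO, against 0.98, 0.94, 1.03 and 0.91 on those labelled WT, a difference of 0.188 ± 0.042 log2 (SE) and the smallest of the 5. Kmt2a minus Setd1b was 0.94, 0.86, 0.73 and 0.92 on the arrays labelled KO, against 0.61, 0.67, 0.61 and 0.67 on those labelled WT, a difference of 0.223 ± 0.05. In all 5 comparisons the groups did not overlap, and the exact two-sided permutation p was 0.0286 for each, as was the Benjamini-Hochberg value over the 5. The comparisons share the Kmt2a values and are not independent. The change of Kmt2a was thus unequal to that of Kmt2b, Kmt2c, Kmt2d and Setd1b at the smallest p this design allows. For Setd1a the cluster used also names Hsd3b7, and with the cluster that names Setd1a alone the difference was 0.393 (exact permutation p = 0.0286). That cluster is dim, at 5.99 on arrays labelled KO and 6.1 on those labelled WT. Genes that dim had a median difference of -0.098 log2, and genes as bright as Kmt2a had 0.067. Subtraction on the same array does not remove such a shift, so the 0.393 holds part of it.

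**Figure D2:**
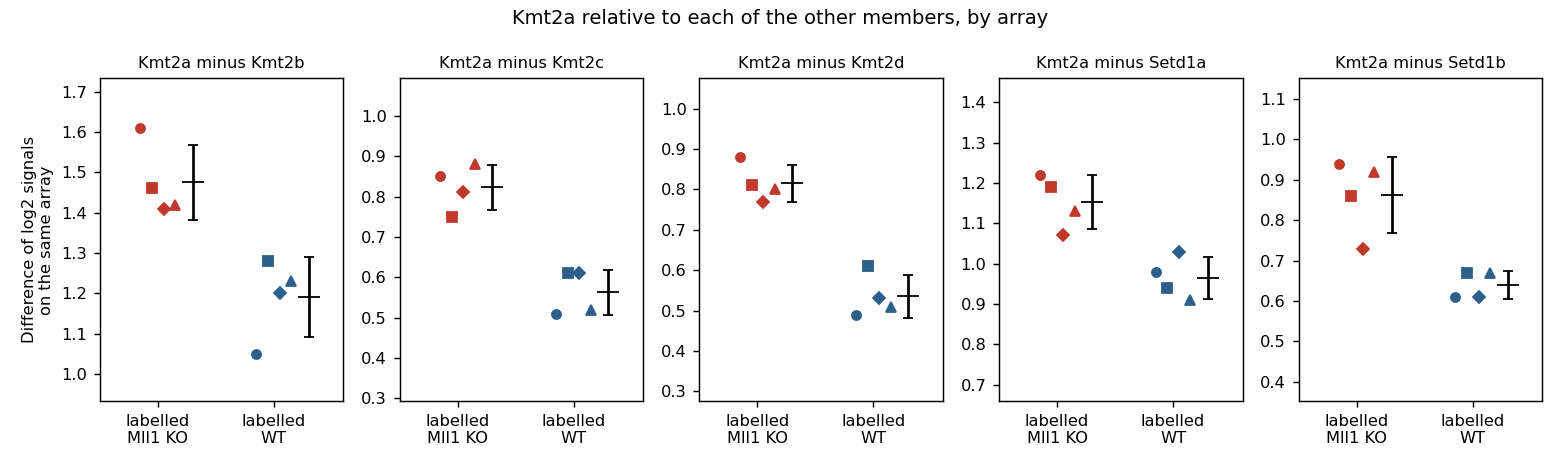
Kmt2a log2 signal minus that of each other gene on the same array, with the arrays labelled Mll1 KO left of those labelled WT; points are mice, shapes give the replicate number as in the plot of single genes, and the black mark and bar are the mean and SD of 4 arrays. The differences between group means run from 0.188 for Setd1a to 0.285 for Kmt2b, and no pair of groups overlaps.

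The signal scale itself shifted between the groups, with bright genes slightly higher and dim genes slightly lower on the arrays labelled KO. In 10 classes of equal size by mean signal, Kmt2a fell in the ninth (9.7 to 10.48), where the median difference was 0.067 log2 and 11.4% of genes rose while 2.35% fell. Kmt2c, Kmt2d, Setd1a and Setd1b fell in the eighth class, with a median of 0.055, and Kmt2b in the seventh, with a median of 0.03. Relative to the median of its class Kmt2a was 0.217 higher. After quantile normalization, which gives all arrays the same distribution, Kmt2a was at 0.224 (limma, adjusted p = 0.03), and 2.95% of all genes rose while 1.58% fell. The difference of Kmt2a exceeded that of 97.8% of all genes in the deposited values.

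**Figure D3:**
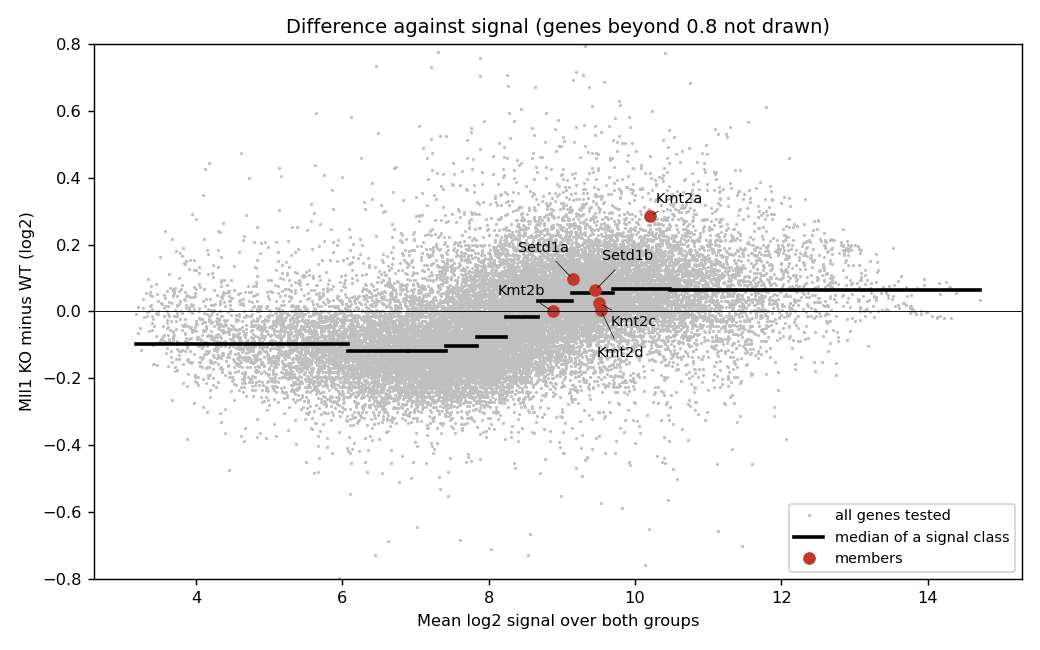
Difference between arrays labelled Mll1 KO and arrays labelled WT (log2) against mean log2 signal for all genes (grey), with the median of each of 10 signal classes as a black bar and the 6 members in red. The medians run from -0.12 in the second-dimmest class to 0.067 in the ninth; Kmt2a lies above the bar of its class at 0.285, and the other 5 members lie between 0 and 0.097.

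The 6 genes had 10 transcript clusters in all, and no cluster beyond that of Kmt2a passed the test. The other Kmt2d cluster (10432294) averaged 8.32 ± 0.064 on arrays labelled KO and 8.32 ± 0.059 on those labelled WT (SD, n = 4 and 4), with a difference of 0 ± 0.0509 log2 (SE). The other bright Setd1b cluster (10525495) had a difference of 0.043 ± 0.055, close to that of the cluster used. The dimmest Setd1b cluster (10525487) read 7.55, 7.44, 7.41 and 7.63 on the arrays labelled KO, against 7.69, 7.57, 7.63 and 7.61 on those labelled WT, with KO replicate 4 inside the range of the arrays labelled WT and the other 3 under it. Its difference was -0.118 ± 0.0592 (limma over all clusters, adjusted p = 0.236).

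The Setd1a cluster that names Setd1a alone (10557780) was dim. It read 6.06, 5.97, 5.96 and 5.98 on the arrays labelled KO, against 6.2, 6.06, 6.09 and 6.05 on those labelled WT. KO replicate 1 equalled WT replicate 2, and the other arrays labelled KO lay under all those labelled WT. The difference of -0.108 ± 0.0497 log2 (SE) opposed the 0.097 of the brighter Setd1a cluster, and neither passed (limma over all clusters, adjusted p = 0.205 and 0.286). Genes of that signal had a median difference of -0.098 in their class, and whether the low signal made the sign was not tested. The direction of Setd1a is thus not settled by these arrays.

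**Figure D4:**
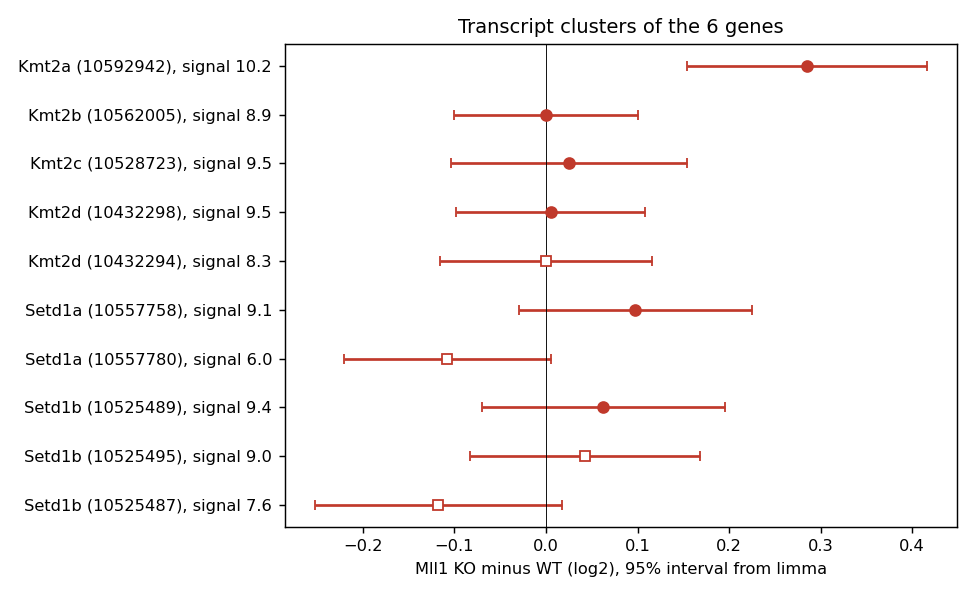
Difference between arrays labelled Mll1 KO and arrays labelled WT (log2) for the 10 transcript clusters of the 6 genes, with 95% intervals from a limma fit over all 35556 clusters; filled points are the clusters used and open squares the others, and each label gives the mean log2 signal. Only the interval of Kmt2a, 0.154 to 0.416, lies apart from 0; the dimmest clusters of Setd1a and Setd1b are at -0.108 and -0.118.

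The genes of proteins that work with these enzymes had mostly small positive differences in signal. Of 17 complex partner genes 2 rose and none fell, or 11.8%, beside 11.0% called among all genes, and the median difference was 0.09 log2 beside -0.033 over all genes. Genes of the eighth signal class, which holds the partners' mean signal of 9.32 to 9.49, had a median of 0.055, and after quantile normalization the partners' median was 0.044. The partners spread from the sixth class (median -0.018), which holds Bod1l, to the brightest (median 0.065), which holds Wdr82. No single class thus stands for them. The genes that rose encode 2 of the 4 core subunits, and the other core subunit genes, Wdr5 (0.03 ± 0.06, adjusted p = 0.709) and Rbbp5 (0.08 ± 0.06, adjusted p = 0.33), overlapped between groups. Ash2l, which with RBBP5 activates the SET domain, read 9.71, 9.64, 9.64 and 9.69 on the arrays labelled KO, against 9.42, 9.45, 9.47 and 9.56 on those labelled WT. Dpy30, which binds ASH2L, read 9.6, 9.55, 9.52 and 9.67 on the arrays labelled KO, against 9.32, 9.41, 9.46 and 9.31 on those labelled WT. The groups were apart for both, at 0.2 ± 0.05 and 0.21 ± 0.05 (SE, limma adjusted p = 0.0305 and 0.0339), and neither passed once the arrays were quantile normalized (adjusted p = 0.114 and 0.097).

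The values of 8 of the 17 partners were higher on all arrays labelled KO than on any labelled WT, where the share was 9.57% over all genes and 18.1% over the seventh to ninth signal classes. After quantile normalization this held for 2 of 17, beside 8.40% of all genes. Chosen after its values were seen, the partner that came nearest to a further call was Kdm6a, a demethylase of H3K27 in the KMT2C and KMT2D complexes. It read 9.51, 9.44, 9.41 and 9.54 on the arrays labelled KO, against 9.09, 9.34, 9.18 and 9.4 on those labelled WT (0.22 ± 0.07, adjusted p = 0.0591). Men1, which encodes menin, the partner of KMT2A and KMT2B, was chosen likewise and read 9.71, 9.74, 9.79 and 9.73 on the arrays labelled KO, against 9.61, 9.64, 9.69 and 9.45 on those labelled WT. Its groups were apart, at 0.15 ± 0.06, without passing (adjusted p = 0.107).

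Among 7 other SET domain genes linked to H3K4, Smyd2 rose and none fell, or 14.3% called, near the 11.0% of all genes. Smyd2, better known for methylating p53 and H3K36, read 9.72, 9.86, 9.88 and 9.76 on the arrays labelled KO, against 9.45, 9.52, 9.5 and 9.35 on those labelled WT. The groups were well apart, and the difference of 0.35 ± 0.06 log2 (SE, limma adjusted p = 0.00567) kept its call after quantile normalization (0.3, adjusted p = 0.0108). The other 6 lay between -0.06 and 0.01, and the median of the list was -0.005.

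None of 7 H3K4 demethylases passed, a count too small to set against the 11.0% called among all genes, and their differences lay between -0.03 and 0.09 log2. At an unadjusted p under 0.05, met by 8314 of all 25072 genes, none passed either (limma). The lowest p belonged to Kdm2b, best known as an H3K36 demethylase, at 0.07 ± 0.05 (SE, adjusted p = 0.362), followed by the Y-linked Kdm5d at 0.09 ± 0.08 (adjusted p = 0.448). Kdm5d read 8.44, 8.6, 8.24 and 8.29 on the arrays labelled KO, against 8.24, 8.4, 8.39 and 8.18 on those labelled WT, and the groups overlapped.

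Of 12 genes listed as linked to MLL1, 2 fell and none rose, or 16.7% called beside 11.0% of all genes (5.71% lower). Their median was -0.143 log2, and the list was chosen with earlier results of these data known. Meis2, a homeobox gene of the TALE class, read 10.61, 10.97, 10.85 and 10.82 on the arrays labelled KO, against 11.47, 11.42, 11.41 and 11.58 on those labelled WT. Its groups were far apart, at -0.66 ± 0.07 (SE, limma adjusted p = 0.000927) and -0.71 after quantile normalization. The related Meis1 was at -0.25 ± 0.06 (adjusted p = 0.0345), which did not pass once the arrays were quantile normalized (adjusted p = 0.119). The list's mean signal lay at 7.85 to 7.92 on the arrays labelled KO and 7.99 to 8.15 on those labelled WT, within the fifth signal class, where genes of any kind had a median difference of -0.077. Its genes spread from the dimmest class (median -0.098) to the brightest, which holds Meis2 (median 0.065), so no single class stands for the list. All arrays labelled KO lay under all those labelled WT for 4 of the 12, where the share over all genes was 10.2%, and after quantile normalization for 2 of the 12, where it was 6.39%.

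**Figure D5:**
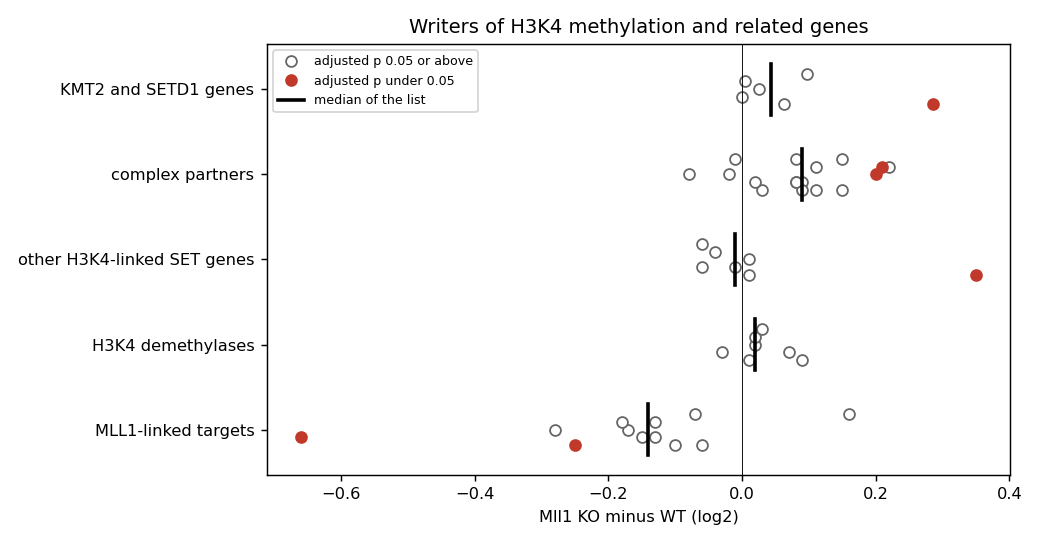
Difference between arrays labelled Mll1 KO and arrays labelled WT (log2) for the 6 methyltransferase genes and for the 4 lists around them; each point is a gene, filled where the limma adjusted p is under 0.05, and black bars are list medians. Kmt2a at 0.285 and Smyd2 at 0.35 lie farthest to the right and Meis2 at -0.66 farthest to the left, while the 7 H3K4 demethylases lie between -0.03 and 0.09.

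The genes whose pattern over the 8 arrays was most like that of Kmt2a were found by the root mean square difference between the centred log2 values of both genes, among 19906 genes. Nearest was Cdh7, a type II cadherin, at 0.033 log2, followed by Gprasp2, a receptor sorting protein gene, at 0.0377. Zkscan16 (0.0409), a zinc finger gene, Plxnb2 (0.0412), a semaphorin receptor gene, and Abca8b (0.0415), a lipid transporter gene, completed the 5, beside a median of 0.182 over all genes compared. Cdh7 read 9.5, 9.49, 9.37 and 9.45 on the arrays labelled KO, against 9.05, 9.18, 9.16 and 9.15 on those labelled WT, with WT replicate 1 the lowest. These 5 genes were picked for their likeness to Kmt2a, so a shared lowest array is no separate result. The relatives of Kmt2a lay at 0.107 for Setd1a to 0.165 for Kmt2b, farther than the 5 picked genes but nearer than the median of 0.182.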

How the data were processed

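The authors deposited log2 signals for 35556 transcript clusters on each of 8 arrays, hybridised with total RNA that had been labelled with biotin (WT PLUS kit), per the labels. Affymetrix Expression Console, RMA and Transcriptome Analysis Console 3.0 are named per the submitters' processing notes; the array model is not given in the sources used here, nor is the genome build. The authors' deposited comparison table gave gene symbols, bi-weight mean log2 signals, a signed linear fold (positive where wild-type was higher), and ANOVA and FDR p-values, per the file headers. Of its 28944 clusters 26836 had a symbol, for 25072 genes; 1146 of the clusters used had a description naming several genes.

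Per gene the cluster with the highest mean was fitted with limma 3.58.1 (lmFit, eBayes; R 4.3.3) on genotype alone, without a filter, and Benjamini-Hochberg adjustment over all genes at 0.05. Intervals are 95% intervals from limma. Lists were only counted and given by their medians. The members and lists were chosen with earlier results of these data known. Named were the 6 members, up to 6 passing genes per list (otherwise the 2 with the lowest p), and the 5 genes most like Kmt2a. Arrays give no count depth, so their number limits the precision. The series' design text counts 4 mice per genotype. Same-numbered arrays did not deviate together (correlations of -0.006 to 0.019 over genes), so the numbers were not taken as pairs. The procedure was tested on simulated data. It recovered 32.8% of planted differences of 0.25 log2, 83.6% of those of 0.5 and 100% of those of 1, with 8 false calls. A gene that was not called may thus have changed by a small amount. The simulated data held far fewer changed genes than were called here, so these shares need not hold for the real arrays. Alternatives were other normalizations, filters, tests and cluster choices, a replicate block and each array left out. Some results are not reported here.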

Additional observations from a re-analysis of the deposited data

How the results depend on the processing

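Kmt2a stayed higher on the arrays labelled KO in all 20 alternatives and passed in 19 (0.22 to 0.346 log2, limma adjusted p = 0.00463 to 0.0589). The exception, chosen after the data were seen, left out WT replicates 1 and 4 together (0.223), and there the 5 differences relative to Kmt2b, Kmt2c, Kmt2d, Setd1a and Setd1b were 0.235, 0.212, 0.245, 0.167 and 0.223, each at an exact p of 0.0667, the smallest 4 against 2 arrays allow. None of the other 5 genes passed in any alternative (lowest adjusted p = 0.0889). Signs of uncalled genes turned after quantile normalization (Kmt2c -0.023, Kmt2d -0.043), after cyclic loess (-0.024 and -0.045), with array weights (Kmt2d -0.003), without WT replicates 1 and 4 (Kmt2d -0.022), with the mean of all clusters (Setd1a -0.005, Setd1b -0.004) and with clusters of several genes left out, chosen after the data were seen (Setd1a -0.108, adjusted p = 0.163). The cause was not tested.

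With 1 array left out Kmt2a lay between 0.244 and 0.307, Kmt2b between -0.016 and 0.021, Kmt2c between -0.01 and 0.06, Kmt2d between -0.021 and 0.026, Setd1a between 0.052 and 0.128 and Setd1b between 0.032 and 0.097. The differences relative to Kmt2b (0.238 to 0.315), Kmt2c (0.241 to 0.284) and Kmt2d (0.258 to 0.305) kept an exact p of 0.0286, and those relative to Setd1a (0.165 to 0.215) and Setd1b (0.197 to 0.267) reached 0.0571. With the replicate number as a block the 5 differences were 0.285, 0.26, 0.28, 0.188 and 0.223, at an exact p of 0.125, the smallest 4 pairs allow, and Kmt2a kept its call (adjusted p = 0.0372).

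All genes numbered 1317 higher and 1432 lower. The counts were 739 and 397 after quantile normalization, 803 and 458 after cyclic loess, 2985 and 501 with arrays centred on their medians, 606 and 422 unmoderated, 689 and 498 over all clusters, 861 and 806 with the replicate block, and 511 and 461 without WT replicates 1 and 4. Without dim genes 489 were lower, and with array weights 2629. With 1 array left out they were 435 to 1609 higher and 330 to 1913 lower, with both lowest without KO replicate 3 and both highest without WT replicate 4. Rises among complex partners numbered 0 after quantile normalization, cyclic loess, over all clusters or with the block, 1 unmoderated or without WT replicates 1 and 4, 8 with centring and 0 to 3 with 1 array left out. Falls among MLL1-linked targets numbered 1 in these settings except the unmoderated test, and 1 without dim genes; with 1 array left out they were 1 to 3, and centring gave 1 rise.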

Other observations

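Human KMT2A is known from leukaemias in which it is fused to other genes, several of them members of elongation complexes. Of 9 mouse counterparts of common fusion partners, none passed (limma), where 11.0% of all genes were called. The list was chosen after values of some were seen. At an unadjusted limma p under 0.05, met by 8314 of all 25072 genes, there was 1. The median difference of the 9 was 0.017 log2. Mllt11 had the lowest p, at 9.91 ± 0.1 on arrays labelled KO and 9.78 ± 0.07 on arrays labelled WT (SD, n = 4 and 4), a difference of 0.14 ± 0.06 (SE, limma adjusted p = 0.149). Mllt1, which encodes ENL, was at 0.13 ± 0.08 (adjusted p = 0.259), Mllt3, which encodes AF9, at -0.01 ± 0.05 and Aff1, a scaffold of elongation complexes, at -0.02 ± 0.05.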
